A study of Cyanidioschyzon merolae strain 10D with 12 samples.

Results

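CMR409C, CMH127C, CME102C and CMD180C are 4 nuclear genes of the unicellular red alga Cyanidioschyzon merolae whose best Arabidopsis matches are zinc finger proteins of the CONSTANS, B-box and GATA families. They were picked by identifier from a table of 4970 genes, of which they are 0.0805%. A total of 4865 genes had enough reads to be tested, and all 4 zinc finger genes were far above that limit in every group. The choice was made with their levels in these libraries known, and with a late rise at low CO2 in mind. Values after 24 h at low CO2 are therefore given below as a description without a test. Other comparisons of the 4 genes were tested, but their p-values and ranks are not free of the choice either.

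B-box and GATA zinc fingers are small protein folds held together by bound zinc. In Arabidopsis, CONSTANS is a B-box protein that links day length to flowering and works together with subunits of nuclear factor Y, the complex that binds CCAAT boxes. GATA factors bind DNA around the letters GATA. The Arabidopsis factor GNC is induced by nitrate and promotes the expression of chlorophyll synthesis genes, and fungal GATA factors switch nitrogen metabolism. None of these roles has been measured here for the algal genes.

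The 12 libraries came from wild-type cells of strain 10D grown as batch cultures at 30 °C under 90 µmol photons per square metre and second, from a starting optical density of 0.7, with 3 libraries in each of 4 groups. HC 0 h cells had 5% CO2 in the aeration gas, LC 3 h and LC 24 h cells had been moved to 0.04% CO2 for 3 h or 24 h, and HC 24 h recovery cells had been returned to 5% CO2 for 24 h after the low-CO2 day. The labels call the 3 libraries of a group biological replicates. The groups follow each other in time, so age of the culture and CO2 cannot be told apart where the CO2 level differs. The level is the same in HC 0 h and recovery, and in LC 3 h and LC 24 h, and there the age and the CO2 history differ. RNA was taken from whole cultures, so a change in part of the cells and a change in every cell cannot be told apart either.

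The identity of the 4 genes rests on similarity of unequal strength. CME102C, of 1045 bases in the deposited table, matched the Arabidopsis GATA factor GNC with a BLAST p, as the table's header calls it, of 5e-14. CMD180C, of 1077 bases, matched another GATA-type zinc finger protein at 3e-11. CMR409C, of 1980 bases, matched a protein described as zinc finger CONSTANS-related at 2e-06. Its category is unclassified regulation of transcription, not the CONSTANS-like zinc finger family, so its zinc finger identity rests on the match's description. CMH127C, the longest at 3771 bases, matched a B-box protein only at 0.02, which is weak, and its family name is correspondingly uncertain. RefSeq assembly ASM9120v1 lists all 4 identifiers as protein-coding genes and gives none of them a name beyond the locus tag. Because the build behind the deposited table is not given in the sources used here, no coordinates are printed.

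Total estimated counts ranged from 9671516 to 11367647 per library at HC 0 h, 9887990 to 12063878 at LC 3 h and 13366148 to 22881422 at LC 24 h. The recovery libraries were deepest, at 24296460 to 28346661. Replicate 1 stood somewhat apart in each group. At LC 24 h it correlated with the other replicates at r = 0.953 and 0.962 across genes against 0.996 between replicates 2 and 3, and these values describe libraries, since genes are not independent. The members were well covered, with at least 469 reads in every library. Levels below are TMM-normalised CPM, that is, read counts divided by the TMM-scaled library total in the usual CPM unit, and changes are log2 ratios ± standard error from edgeR.

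The 4 genes fell into a pair of time courses. CMR409C and CMH127C were lower after 3 h at low CO2 than at the start and reached their highest level after 24 h. The GATA-type genes CME102C and CMD180C were already above their starting level at 3 h. In all 4 genes the LC 24 h mean was the highest of the 4 groups and the recovery mean lay above the HC 0 h mean. The name of late low-CO2 genes thus describes the course of CMR409C and CMH127C, and the GATA-type genes go against it.

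**Figure D1:**
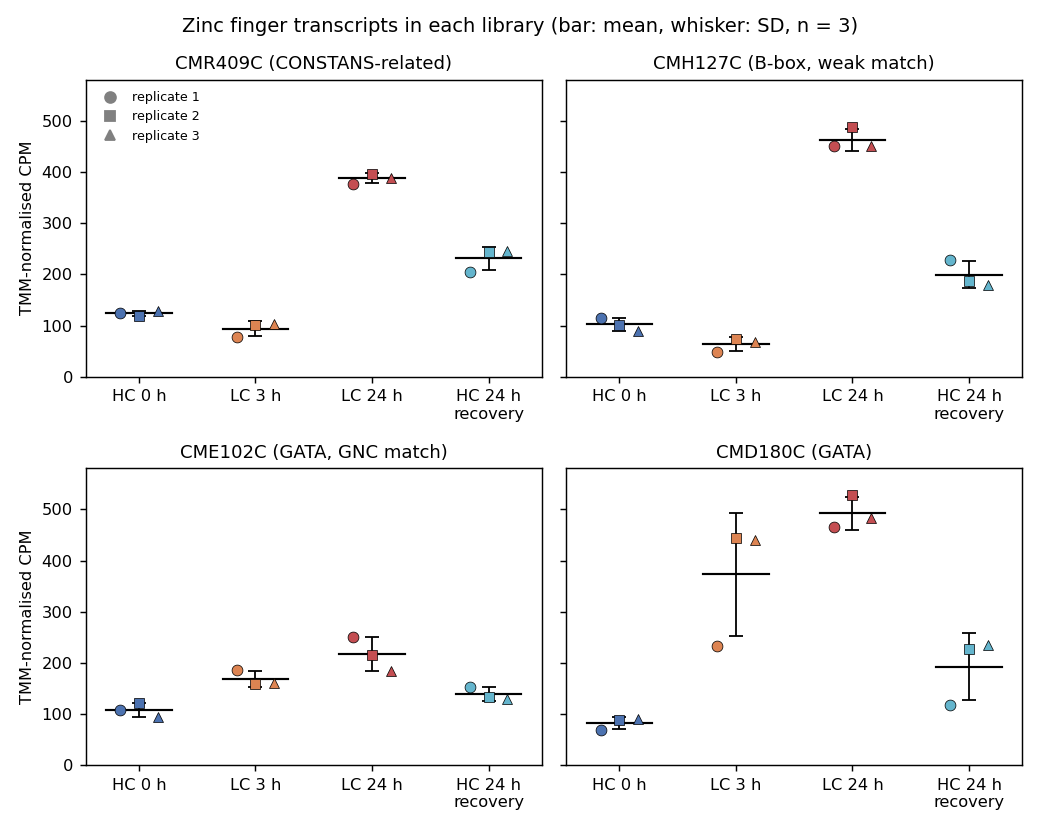
TMM-normalised CPM of the 4 genes (y axis) in each of the 12 libraries, by group (x axis). Points are libraries, with 1 marker shape per replicate number, horizontal bars are means and whiskers SD (n = 3). CMR409C and CMH127C dip at LC 3 h and peak at LC 24 h, while CMD180C is at 233.7 to 444.7 CPM at LC 3 h, well above its 69.7 to 90.7 CPM at HC 0 h.

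CMR409C, the CONSTANS-related gene, was at 125.2, 118.1 and 127.5 CPM in the HC 0 h replicates 1 to 3. It was at 77.0, 100.9 and 103.6 CPM at LC 3 h, and at 376.9, 396.8 and 388.8 CPM at LC 24 h. After recovery it was at 204.7, 244.1 and 244.7 CPM. No 2 groups overlapped: every LC 3 h library was below every HC 0 h library, every recovery library above them, and the LC 24 h libraries were highest. The spread within LC 24 h was narrow, with a mean of 387.5 ± 10.0 CPM (SD, n = 3), against 93.8 ± 14.6 CPM at LC 3 h.

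Against HC 0 h, CMR409C at LC 3 h fell by 0.40 ± 0.11 on the log2 scale (edgeR quasi-likelihood adjusted p = 0.0134, lower in 3 of 3 libraries than the whole HC 0 h group). The change from HC 0 h to LC 24 h was 1.65 ± 0.11, or 3.13-fold, and from LC 3 h to LC 24 h it was 2.05 ± 0.11, or 4.13-fold. Ranked over all 4865 tested genes, the latter was the 12th largest increase, given as a description of the chosen gene. After recovery CMR409C had come down to 231 ± 22.9 CPM, which was 0.90 ± 0.11 above HC 0 h (edgeR adjusted p = 0.00198).

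CMH127C, the gene with the weak B-box match, followed the same course with a wider swing. Its HC 0 h libraries held 114.5, 101.7 and 89.8 CPM and its LC 3 h libraries 47.9, 73.8 and 67.8 CPM. The LC 24 h libraries held 450.0, 487.4 and 451.0 CPM, and the recovery libraries 228.8, 187.8 and 179.5 CPM. Again no groups overlapped, and their order was the same as for CMR409C.

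CMH127C fell by 0.69 ± 0.15 on the log2 scale at LC 3 h (edgeR adjusted p = 0.00425). From there to LC 24 h it went up 7.32-fold (log2 change 2.87 ± 0.16), the 6th largest increase of all tested genes between these time points, again as a description. Against HC 0 h the LC 24 h level was 4.54-fold higher (log2 change 2.18 ± 0.16). Recovery brought it to 199 ± 26.4 CPM, still 0.96 ± 0.15 above HC 0 h (edgeR adjusted p = 0.00453). Replicate 1 was the highest recovery library for CMH127C and the lowest for CMR409C, so the pair did not track each other in that group's libraries.

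CME102C, the gene matched to GNC, had the smallest change from HC 0 h of the 4 at LC 24 h. It was at 109.1, 122.3 and 94.8 CPM at HC 0 h and at 185.6, 158.1 and 161.8 CPM at LC 3 h. It was at 251.1, 216.6 and 184.2 CPM at LC 24 h, and at 154.0, 133.9 and 129.2 CPM after recovery. The LC 3 h and LC 24 h libraries overlapped, the lowest LC 24 h library at 184.2 CPM lying just under the highest LC 3 h library. The recovery libraries lay above HC 0 h by a narrow margin, 129.2 against 122.3 CPM.

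The log2 change of CME102C from HC 0 h was 0.63 ± 0.13 at LC 3 h (edgeR adjusted p = 0.00256) and 1.00 ± 0.13, or 2-fold, at LC 24 h. Between LC 3 h and LC 24 h it was 0.37 ± 0.13. After recovery it was 0.35 ± 0.13 above HC 0 h, which did not pass the test (edgeR adjusted p = 0.0877). That p ranged from 0.0602 to 0.252 when single libraries were left out. With the replicate number as a block the change was again 0.35, and its edgeR adjusted p was 0.0173.

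CMD180C, the second GATA-type gene, had the largest change from HC 0 h of the 4, at LC 3 h as well as at LC 24 h. It was at 69.7, 88.0 and 90.7 CPM at HC 0 h and at 233.7, 444.7 and 440.7 CPM at LC 3 h. At LC 24 h it was at 465.2, 528.1 and 482.8 CPM, and after recovery at 118.0, 226.9 and 234.3 CPM. Replicate 1 was the lowest library in all 4 groups, and at LC 3 h and after recovery it was far below the other replicates. The lowest LC 3 h library, 233.7 CPM, and the highest recovery library, 234.3 CPM, overlapped, whereas LC 24 h was above all other groups.

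CMD180C rose 4.5-fold at LC 3 h (log2 change 2.17 ± 0.29, edgeR adjusted p = 1.74e-04) and the change at LC 24 h was 5.94-fold (log2 change 2.57 ± 0.29). The step from LC 3 h to LC 24 h was 0.40 ± 0.28, and 0.13 without LC 3 h replicate 1. After recovery CMD180C was 1.22 ± 0.28 above HC 0 h (edgeR adjusted p = 0.0195). This last call rests on single libraries. The edgeR adjusted p for CMD180C was 0.0725 and 0.0526 with replicate 1 or 2 of the starting group left out, and 0.0857 and 0.0712 with recovery replicate 2 or 3 left out.

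**Figure D2:**
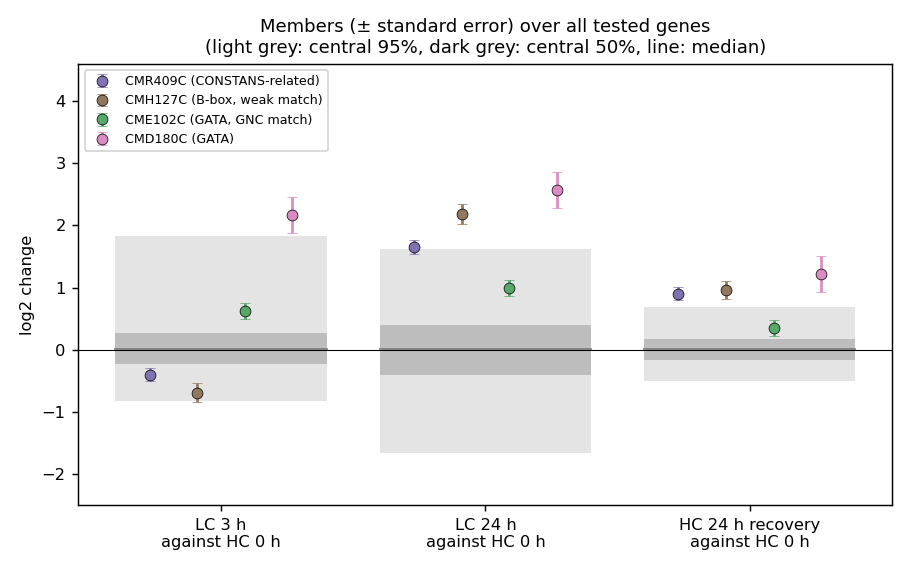
Log2 change from HC 0 h (y axis) of the 4 genes in 3 comparisons (x axis). Points are fitted changes and whiskers standard errors; the grey bands hold the central 95% and 50% of all 4865 tested genes. CMR409C and CMH127C lie below 0 at LC 3 h (-0.40 and -0.69) and above 0 in the other comparisons, whereas the GATA-type genes lie above 0 in all 3.

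At LC 3 h the 4 genes all passed the test, 2 higher and 2 lower, each with libraries that did not overlap HC 0 h. In that comparison 41.4% of all tested genes were called, 22.1% higher and 19.3% lower, so a call as such was common. Libraries of the groups did not overlap, with LC 3 h above, for 25.3% of genes, and with LC 3 h below for 24.9%. With upper-quartile scaling the higher share of all calls at LC 3 h was 39.5% in place of 53.4%, while all 4 genes kept their direction and their call. For CMD180C the change was the 92nd largest increase of 4865 genes, and that of CMH127C the 190th largest decrease, whereas CMR409C ranked 637th from below and CME102C 588th from above. The LC 3 h levels were known when the genes were chosen, so these calls and ranks are not free of the choice. The direction at LC 3 h separates CMR409C and CMH127C from CME102C and CMD180C.

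After recovery 3 of the 4 genes were called higher than at HC 0 h, CMR409C, CMH127C and CMD180C, where 14.1% of all tested genes were called and 7.24% were called higher. That background is not firm, since the 684 genes called became 189 to 1198 when single libraries were left out, and 1251 with the replicate number as a block. All 4 had recovery libraries wholly above HC 0 h, as did 19.0% of all genes. The increases of CMR409C, CMH127C and CMD180C ranked 68th, 52nd and 24th of 4865, and that of CME102C 464th. Both recovery and LC 3 h were compared with the same HC 0 h libraries, which are also the reference for the LC 24 h values by which the genes became of interest.

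The change between LC 3 h and recovery uses no HC 0 h or LC 24 h level, although those libraries enter the spread estimated in the fit. The LC 3 h levels were also known when the genes were chosen, and a late rise favours genes that were low then, so the p-values and ranks here are not free of the choice. In this comparison CMR409C was 2.46-fold higher after recovery than at LC 3 h (log2 change 1.30 ± 0.11, edgeR adjusted p = 6.57e-06) and CMH127C 3.15-fold higher (1.65 ± 0.16, edgeR adjusted p = 1.39e-05), with every recovery library above every LC 3 h library for both. With only these 2 groups in the fit, CMR409C had 1.33 and CMH127C 1.68 (edgeR adjusted p = 8.28e-04 and 7.84e-04). Over all tested genes 37.8% were called, 17.7% higher and 20.0% lower, and with upper-quartile scaling the higher share of the calls was 61.7% in place of 46.9%. All recovery libraries lay above all LC 3 h libraries for 23.3% of genes and below them for 24.2%. CMR409C and CMH127C ranked 38th and 16th of 4865 from the highest. CMD180C lay the other way, 1.93-fold lower after recovery (-0.95 ± 0.28, edgeR adjusted p = 0.0203), although its libraries overlapped. That call for CMD180C ended with only these groups in the fit (edgeR adjusted p = 0.0776), and with replicate 2 or 3 of LC 3 h left out (0.0726 and 0.0696). CME102C, at -0.28 ± 0.13, did not pass the test (edgeR adjusted p = 0.112, and 0.0262 with the replicate number as a block).

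Between LC 24 h and recovery all 4 genes came down, with no overlap between the groups for any of them. The drop was 0.75 ± 0.11 on the log2 scale for CMR409C, 1.22 ± 0.15 for CMH127C, 0.64 ± 0.13 for CME102C and 1.35 ± 0.28 for CMD180C. In that comparison 32.9% of all tested genes had recovery libraries that were all below the LC 24 h libraries, and, as the LC 24 h level entered the choice of the genes, nothing is read from the count. Likewise all 4 genes had LC 24 h libraries wholly above HC 0 h, as did 37.3% of tested genes. In the same contrast 63.0% of genes passed the test. Against LC 3 h, 3 of the 4 genes had LC 24 h libraries wholly above, and so had 28.2% of all genes.

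The authors' deposited table gives log2 changes computed from mean TPM (a level per length of gene, scaled to a fixed library total) with 1 added. For LC 3 h it lists -0.536 for CMR409C with a q-value of 1 and -0.807 for CMH127C with a q-value of 0.0633. The early fall of these 2 genes is therefore a call of the edgeR fit used here and not of the authors' deposited table at a threshold of 0.05. In the authors' deposited table CME102C at LC 3 h has 0.486 with a q-value of 0.0648, and CMD180C has 2.01 with a q-value of 7.31e-21. For recovery the authors' deposited table has q-values of 6.23e-11 for CMR409C, 1.46e-09 for CMH127C, 3.57e-05 for CMD180C and 1 for CME102C. The same table places CMR409C and CMH127C in its cluster 10, with 984 genes, and CME102C and CMD180C in its cluster 9, with 619 genes.

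Compared per length of gene, the 4 transcripts differed in abundance. At HC 0 h the mean level was 133 ± 15.7 TPM for CME102C, 98.3 ± 12.4 TPM for CMD180C, 79.9 ± 4.24 TPM for CMR409C and 34.6 ± 4.59 TPM for CMH127C (SD, n = 3). The last was among the weak transcripts of the cell, at percentile 8.74 to 11.3 of all genes with a TPM. At LC 24 h the order was CMD180C at 623 ± 28.9 TPM, CME102C at 284 ± 49.8 TPM, CMR409C at 267 ± 1.35 TPM and CMH127C at 167 ± 5.63 TPM. By then CMD180C lay at percentile 95.4 to 95.8 and CMH127C at 67.2 to 70.4.

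Within each pair of like time courses the balance of the transcripts shifted. The TPM ratio of CMH127C to CMR409C was 0.370 to 0.481 at HC 0 h, 0.327 to 0.384 at LC 3 h and 0.609 to 0.645 at LC 24 h. After recovery it was 0.587, 0.404 and 0.385 in replicates 1 to 3, so only replicate 1 was near the LC 24 h ratio. The TPM ratio of CMD180C to CME102C was below 1 in every HC 0 h library (0.620 to 0.929) and above 1 in every low-CO2 library (1.22 to 2.73 at 3 h, and 1.8, 2.37 and 2.54 at 24 h). After recovery it was 0.744 in replicate 1 and 1.64 and 1.76 in replicates 2 and 3. CMD180C was thus the scarcer GATA-type transcript at the start and the more abundant one in low CO2.

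Over the 12 libraries the log2 CPM of CMR409C and CMH127C correlated at r = 0.982, and those of CME102C and CMD180C at 0.807. Across the families r was 0.373 to 0.499. These values describe 12 libraries in 4 groups and mostly reflect the group means. Among 4657 genes of sufficient level, CMR409C was the gene closest to CMH127C, and CMH127C was the 4th closest to CMR409C. CMD180C ranked 249th for CME102C, and CME102C 533rd for CMD180C, so the GATA-type genes were not particularly alike.

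The other genes closest to CMR409C were CMB007C, matched to EDA35, at r = 0.9865, the protein repair methyltransferase PIMT1 match CMI267C at 0.9862 and the QQT1 match CMI201C at 0.9824. All 3 had the same order of group means as CMR409C but a far smaller swing. CMI267C, for example, had means of 167, 149, 252 and 219 CPM in the 4 groups in order of time. Closest to CMH127C after CMR409C were CMK069C, matched to diacylglycerol kinase 1, at 0.9795, the protein kinase-related CMK182C at 0.9755 and the phosphoesterase CML172C at 0.9716. CMK182C had means of 430, 334, 739 and 521 CPM in the 4 groups in order of time. As a description of the chosen gene, CMH127C had a larger log2 change at LC 24 h than any of these genes.

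Closest to CME102C were CMJ056C, matched to the vesicle SNARE VTI13, at r = 0.9770, the C2H2 zinc finger CMH237C at 0.9657, CMJ167C at 0.9625 and the sel-1-related CMB078C at 0.9620. CMH237C had means of 49.4, 73.8, 82.6 and 61.1 CPM in the same order. Closest to CMD180C were CMN326C, matched to a dual-specificity phosphatase, at 0.9884, CMQ014C at 0.9831, the inositol phosphate kinase match CMQ073C at 0.9819 and CMT528C at 0.9808. CMN326C had an even wider range than CMD180C, with means of 85.3, 582, 860 and 208 CPM in order of time. The low replicate 1 of CMD180C at LC 3 h recurs in all 4 of its closest genes, which is part of what the correlation measures.

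**Figure D3:**
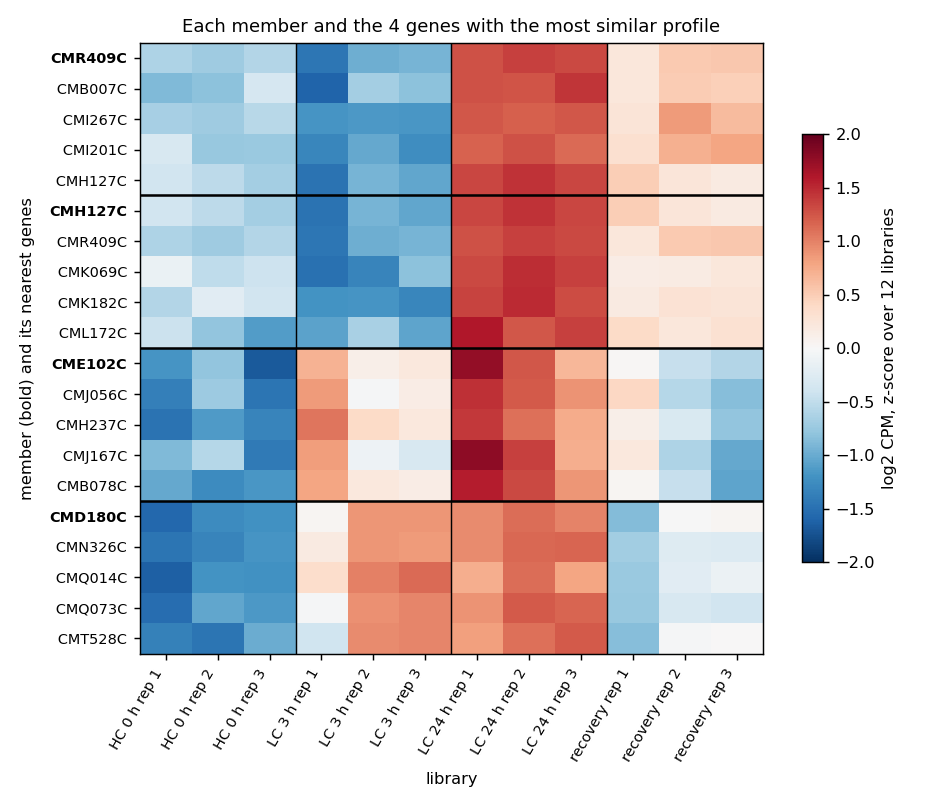
Log2 CPM of each of the 4 genes (bold) and its 4 closest genes (rows) in the 12 libraries (columns), as z-scores over the libraries; red is above and blue below the gene's own mean. The blocks of CMR409C and CMH127C are blue at LC 3 h and red at LC 24 h, while that of CMD180C is red at LC 24 h and in replicates 2 and 3 of LC 3 h.

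Few other genes of these families were found. The table described 2 other genes as GATA-type and 1 other as CONSTANS-like. CMR493C, a GATA-type gene, was the most abundant of them, with 305 ± 10.5 CPM at the start and 217 ± 2.85 CPM after 3 h of low CO2 (SD, n = 3). Its later means were 294 ± 14.5 CPM in the LC 24 h group and 257 ± 11.9 CPM in recovery. It fell by 0.50 ± 0.06 on the log2 scale at LC 3 h (edgeR adjusted p = 1.07e-04), in the direction opposite to CME102C and CMD180C, and at LC 24 h its change of -0.06 ± 0.06 did not pass the test (edgeR adjusted p = 0.453). CMP135C, with 1 to 13 reads per library, was too weak to be tested. CMR119C, matched to CONSTANS-like 1 with a BLAST p of 0.004, stayed at group means of 0.619 to 1.04 CPM and passed the test in none of the 6 comparisons.

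A wider list, with the members left out, held 140 genes described by a zinc finger or by zinc binding, 139 of them tested. It includes CMR493C and CMR119C. At LC 24 h 73 of them rose and 21 fell, and their median log2 change was 0.28, against 32.7% higher, 30.3% lower and a median of 0.02 over all tested genes. At LC 3 h 40 rose and 15 fell with a median of 0.11, but with upper-quartile scaling the counts were 29 and 29. Of the list, 39.6% were called at LC 3 h and 28.8% were called higher, against 41.4% and 22.1% of all tested genes. The list is mixed. Its largest rise was that of the carbonic anhydrase CMT416C, a zinc enzyme and no regulator, at 4.95 ± 0.17. It was followed by CMM141C, filed under C2H2 zinc fingers, at 2.32 ± 0.25 and the RING finger gene CMM036C at 1.72 ± 0.20. Falls were led by the histone deacetylase match CMM134C at -1.71 ± 0.20, the helicase CML213C at -1.31 ± 0.14 and the alcohol dehydrogenase match CMQ301C at -1.30 ± 0.25. All 6 had an edgeR adjusted p of 0.00105 or less. CMM141C had means of 109, 628, 545 and 139 CPM in order of time. Its highest mean was thus at 3 h, but with an SD of 249 CPM there.

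A word pattern for genes that act beside CONSTANS in plants, or in light signalling, gave a list of 24, of which 23 were tested. It is mixed too, and holds DNA repair photolyases such as the UVR3 match CMN022C, and a proton-transporting ATPase match, CMC151C. After 24 h of low CO2 13 rose and 3 fell, their median log2 change being 0.35, and after 3 h 11 rose and 3 fell, their median being 0.28. The shares that rose were 56.5% and 47.8%, against 32.7% and 22.1% of all tested genes. Of 11 matches to cryptochromes and photolyases, the blue-light receptor and DNA repair family, 6 rose and 1 fell at LC 24 h. CML116C and CMJ130C have the same best match, cryptochrome 3, and went opposite ways, with log2 changes of 1.17 ± 0.29 and -0.63 ± 0.10 (edgeR adjusted p = 0.0051 and 3.5e-04). Another cryptochrome 3 match, CMA044C, changed by 0.478 ± 0.125 (edgeR adjusted p = 0.00628). Of the cryptochrome 2 matches, CMQ453C changed by 0.97 ± 0.08 (edgeR adjusted p = 3.5e-06). It had means of 256, 259, 502 and 327 CPM in order of time, the LC 3 h mean being level with the start. The other, CMH274C, changed by 0.35 ± 0.09 at LC 24 h and by 0.38 already at LC 3 h (edgeR adjusted p = 0.00684 and 0.0078). The list also caught CMO284C, matched to a sterol reductase named for a light phenotype, at 0.91 ± 0.07. A total of 7 tested genes were of nuclear factor Y or the CCAAT-binding category, which holds the partners of CONSTANS in Arabidopsis. Of these, 3 rose and 2 fell at LC 24 h, where 32.7% and 30.3% of all tested genes did. Nothing is read from so small a count. The rises were of the NF-YB match CME089C at 0.52 and the NF-YC matches CMT396C at 0.26 and CMK073C at 0.26. They were named after their values were seen (edgeR adjusted p = 4.85e-04, 0.00989 and 0.0246). The call of CMK073C ended with replicate 1 or 3 of the starting group left out (edgeR adjusted p = 0.0659 and 0.0649), and with replicate 2 or 3 of the LC 24 h group left out (0.0772 and 0.0991). The falls were of another NF-YC match, CMQ472C, at -0.85 ± 0.14 (edgeR adjusted p = 4.2e-04) and another NF-YB match, CMR350C, at -0.55 ± 0.19 (edgeR adjusted p = 0.0249). The call of CMR350C rests on single libraries, its edgeR adjusted p being 0.0888 with replicate 1 of the starting group left out, and 0.0695 or 0.0687 with replicate 2 or 3 of the LC 24 h group left out.

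A list of 106 other tested transcription factors shares 6 nuclear factor Y genes with the preceding one. In it 46 rose and 18 fell at LC 24 h, with 43.4% higher against 32.7% of all genes and a median log2 change of 0.21. Without the shared genes 43 of 100 rose and 16 fell. At LC 3 h 22 rose and 17 fell, or 36.8% called against 41.4% of all tested genes, and upper-quartile scaling gave 17 and 21. The largest rises at LC 24 h were of MYB-related genes. CMB159C, matched to the Arabidopsis clock component LHY, changed by 1.64 ± 0.20, from 115 to 357 CPM (edgeR adjusted p = 3.6e-05). CMR124C, matched to EPR1, changed by 1.60 ± 0.08 (edgeR adjusted p = 1.09e-07) and CMK043C by 1.47 ± 0.13 (edgeR adjusted p = 5.59e-06). For CMB159C the log2 change at LC 3 h was 0.46 and did not pass the test (edgeR adjusted p = 0.0776, and 0.00235 with the replicate number as a block). In size the LC 24 h change of CMR409C, 1.65, was like that of CMB159C. Those of CMH127C and CMD180C, at 2.18 and 2.57, were above the largest of this list. That of CME102C, at 1.00, was below those of CMB159C, CMR124C and CMK043C. The members were chosen with their LC 24 h levels known, so this is a description. Among genes that passed the test, the largest fall was of the E2F partner DP match CML181C, at -1.35 ± 0.29 (edgeR adjusted p = 0.00218), a cell-cycle factor.

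**Figure D4:**
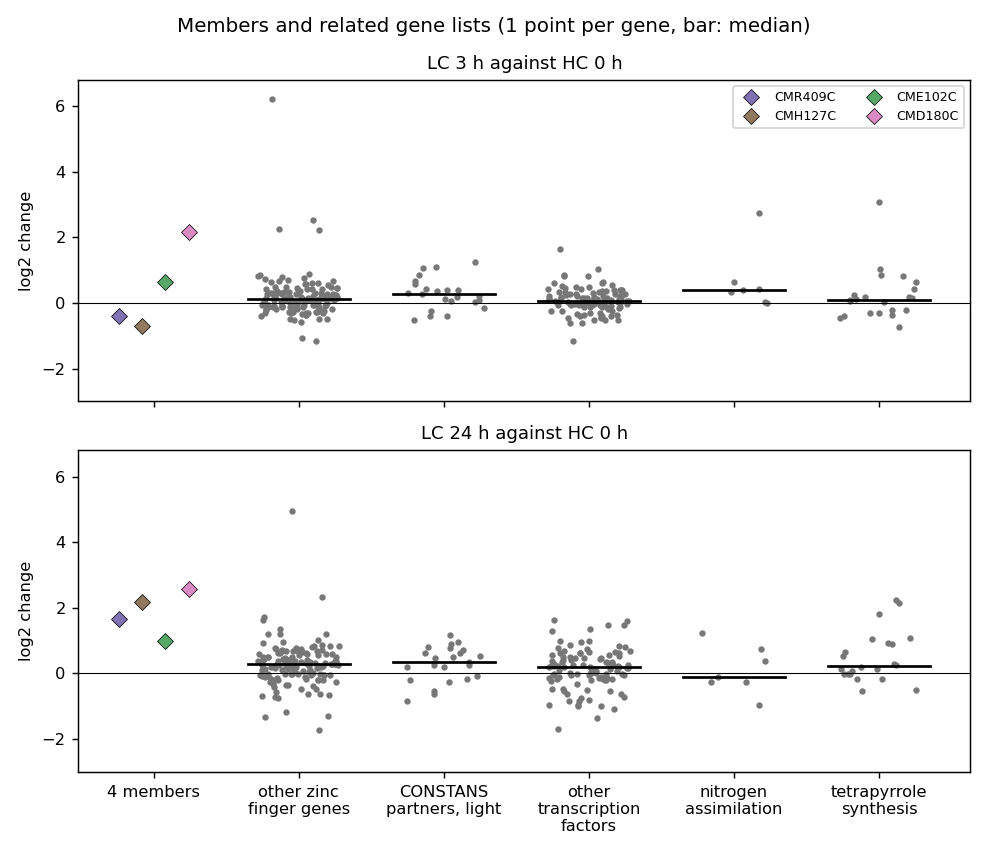
Log2 change from HC 0 h (y axis) at LC 3 h (top) and LC 24 h (bottom) of the 4 genes (diamonds) and of the genes of 5 lists (grey points, 1 per tested gene; bars are medians). At LC 24 h the 4 diamonds lie between 1.00 and 2.57, above the medians of all lists, which run from -0.11 to 0.35. The 4 genes were chosen with their LC 24 h levels known, so this is a description.

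GATA factors are tied to nitrogen use in fungi and to chlorophyll synthesis in Arabidopsis, and both gene groups were read out beside CME102C and CMD180C. Of 7 nitrogen assimilation genes, 2 rose and 1 fell at LC 24 h, or 42.9% called against 63.0% of all genes. At LC 3 h 2 rose, or 28.6% called against 41.4%. Glutamine synthetase CMI233C, which fixes ammonium, changed by 2.75 at LC 3 h (edgeR adjusted p = 8.43e-07) and by 1.24 ± 0.16 at LC 24 h (edgeR adjusted p = 7.12e-05). Its group means were 905, 6080, 2140 and 736 CPM in order of time. The ammonium transporter CMK126C changed by 0.39 ± 0.11 at LC 24 h (edgeR adjusted p = 0.00773). CMR288C, which the list caught as a cofactor gene of nitrate reductase, had a change of -0.26 ± 0.09, and its call (edgeR adjusted p = 0.0326) ended when any 1 of 4 libraries was left out. That p was 0.0814 or 0.101 with replicate 1 or 3 of the starting group left out, and 0.0859 or 0.0838 with replicate 1 or 3 of the LC 24 h group left out.

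Of 22 tested tetrapyrrole synthesis genes, the pathway to heme and chlorophyll, 8 rose and 2 fell at LC 24 h, where the median log2 change was 0.23. That is 36.4% higher, near the 32.7% of all genes, and 45.5% called, below 63.0%. At LC 3 h 4 rose and 4 fell, or 36.4% called against 41.4% of all tested genes. That count rests on single libraries (5 calls in place of 8 with HC 0 h replicate 2, or with LC 3 h replicate 2 or 3, left out). The magnesium chelatase subunit H match CMB093C, of the enzyme that opens the chlorophyll branch, had means of 164, 186, 732 and 350 CPM in order of time. Its change at LC 24 h was 2.16 ± 0.20 (edgeR adjusted p = 5.24e-06) and at LC 3 h 0.18, which did not pass the test (edgeR adjusted p = 0.492). Subunit I, CMV024C, changed by 2.25 ± 0.26 at LC 24 h, from 22.3 ± 4.92 CPM at HC 0 h to 107 ± 37.7 CPM (SD, n = 3). The coproporphyrinogen oxidase-related CMR445C changed by 1.08 ± 0.11. Protoporphyrinogen oxidase CMB025C, at -0.53 ± 0.09, and magnesium chelatase subunit D, CMM270C, at -0.50 ± 0.09, were lower. All 5 had an edgeR adjusted p of 9.14e-04 or less at LC 24 h.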

How the data were processed

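Per the labels' protocols, the TruSeq RNA kit, which keeps no strand information, was used, with 100-base paired reads. Estimated counts per gene were deposited by the authors, and 94% of them were whole to within 1e-09. The submitters' processing notes name CASAVA 1.8, Bowtie2, RSEM and edgeR without roles. Per the file headers the table also holds TPM per library, log2 fold changes, q-values and, outside these units, other columns (gene length, BLAST p and cluster number). The authors' deposited log2 changes of LC 24 h against HC 0 h were recomputed from mean TPM plus 1 to within 1.6e-09.

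Counts were rounded and tested with edgeR 4.0.16 in R 4.3.3 in 1 fit of 12 libraries and 4 groups, with TMM scaling, the default filter, robust quasi-likelihood dispersion and Benjamini-Hochberg adjustment over 4865 genes in each of 6 comparisons, called at an adjusted p under 0.05. The fit was tested on simulated data. Standard errors are the absolute log2 change over the root of its F statistic. Log2 CPM for correlations carry a prior count of 2. With strand lost, reads of overlapping or antisense transcripts cannot be told apart. Replicates of a group differed beyond sampling noise, and 0 columns were unmatched.

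The members, gene lists, tests and alternatives were chosen with earlier results of these data known. From each list up to 3 rises and 3 falls at LC 24 h with an average log2 CPM of at least 3 are named, and for each member the 4 genes with the highest correlation. Lists are word patterns on descriptions and categories, and a list's count is no set test. The other GATA-type and CONSTANS genes are all named.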

Additional observations from a re-analysis of the deposited data

Results flagged for a closer look

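CMR409C and CMH127C moved in opposite directions at the 2 low-CO2 time points: every LC 3 h library was below the HC 0 h mean and every LC 24 h library above it. For CMR409C the log2 changes from HC 0 h were -0.40 at LC 3 h and 1.65 at LC 24 h, and for CMH127C -0.69 and 2.18. The difference between the time points was not tested, because the LC 24 h values entered the choice of these genes. No test for an outlying library was run on these groups of 3 libraries.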

How the results depend on the processing

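The number of genes called between recovery and HC 0 h, 684, was 1077 with DESeq2 and 1251 with a replicate block, and ran from 189 to 1198 when single libraries were left out: 304, 368 and 358 without HC 0 h replicates 1, 2 and 3, 1198 without LC 3 h replicate 1, and 189 and 301 without recovery replicates 2 and 3. In the same comparison the replicate block gave CME102C 0.35 (adjusted p 0.0173), now called, and CMD180C ran from 1.05 to 1.48 over left-out libraries, with 4 of 12 ending its call. Between recovery and LC 3 h the replicate block gave CME102C -0.28 (adjusted p 0.0262), also now called. CMD180C was -0.91 (0.0776) with only the groups compared, and ran from -1.20 to -0.69 over left-out libraries. The replicate block gave 4 called nitrogen genes at LC 3 h in place of 2, and tetrapyrrole calls at LC 3 h ran from 5 to 9 over left-out libraries. Elsewhere the 4 members kept direction and, where tested, their call under all alternatives run. At LC 3 h the adjusted p of CMR409C reached 0.044. The alternatives for the lists and their genes were chosen after seeing the data. Same-numbered libraries of different groups deviated together in 15 of 18 pairs at r over 0.1 (-0.0758 to 0.535), and 10 of 12 libraries fitted best with their own number. The labels do not say that a number marks 1 culture, so the block was not used for the main values. With 3 libraries a group and at least 469 reads per member, the spread between libraries, not counting error, limits these values.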

Other observations

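Next to CMR409C on the RefSeq assembly lie CMR408C and CMR410C, which do not overlap it and were named after their values were seen. Both were also higher at LC 24 h than at HC 0 h, with log2 changes of 2.26 ± 0.23 (edgeR adjusted p = 1.22e-05) and 1.03 ± 0.23 (edgeR adjusted p = 0.00224). At LC 3 h they were at 0.05 and -0.18 against -0.40 for CMR409C. After recovery they were at 1.58 and 0.66 from HC 0 h, against 0.90 for CMR409C. The neighbours of CMH127C were lower at LC 24 h, the translation factor match CMH126C at -0.57 ± 0.06 and the cyclin-dependent kinase match CMH128C at -1.65 ± 0.48 (edgeR adjusted p = 2.49e-05 and 0.0114). Beside CME102C, CME101C did not pass the test (0.03 ± 0.11, edgeR adjusted p = 0.806) and CME103C was lower at -1.37 ± 0.39 (edgeR adjusted p = 0.011). CMD181C, beside CMD180C and described as a transcription factor, was higher at 0.61 ± 0.09 (edgeR adjusted p = 1.65e-04). Of the neighbours tested, 3 were thus higher and 3 lower, where 32.7% and 30.3% of all genes were.

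The replicate 1 libraries of LC 3 h, LC 24 h and recovery held the highest level of their group for CME102C and the lowest for CMD180C. Whether replicate 1 came from 1 culture followed over time is not given in the labels, and what sets these libraries apart was not tested.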
